A study of Mus musculus with 4 samples.

Results

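Red cell genes, 8 in all, were followed in mouse liver: the globin genes Hba-a1, Hbb-b2 and Hbb-bh1, the membrane genes Slc4a1, Epb42 and Ank1, and, as other red cell genes, Car2 and Tfrc. All probe sets to which the array's annotation gives one of these symbols and no other were taken, which gave 15 of the 12488 probe sets on the array. Total liver RNA had been hybridised to Affymetrix MG_U74Av2 arrays, 1 per sample. The 2 PEPCK-TAg arrays held RNA of transgenic mice that make the large T and small t oncoproteins of the SV40 virus. As its name says, the transgene stands under the promoter of the gluconeogenic PEPCK gene, which is active in liver and also in kidney. The 2 WT arrays held RNA of mice without the transgene. All mice were B6SJL hybrid males of 50 to 66 days, and all had eaten a diet of 65% protein and 10% carbohydrate for 4 weeks after weaning. Nothing in the labels states that the 2 arrays of a group stand for different animals, so each p-value covers the spread between arrays, which may be purely technical.

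Red cells carry oxygen on haemoglobin, a tetramer of alpha and beta globin chains with haem. Their membrane is held to a spectrin skeleton through ankyrin (Ank1), which binds the anion exchanger band 3 (Slc4a1), and protein 4.2 (Epb42) steadies that link. Carbonic anhydrase 2 (Car2) interconverts carbon dioxide and bicarbonate, which band 3 moves across the membrane. Red cell precursors take up iron through the transferrin receptor (Tfrc), which many dividing cells also use. The fetal liver makes red cells, and the adult mouse makes most of them in bone marrow and spleen. The youngest circulating red cells keep globin mRNA, so liver RNA holds a share of blood RNA.

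The promoter windows of Hba-a1 and Epb42 are shown because these 2 genes, of different classes, both rose in PEPCK-TAg liver. RefSeq windows of 300 bases, 250 before and 50 after the start, were given for 3 of the 8 genes, Hba-a1, Epb42 and Tfrc, and not for Hbb-b2, Hbb-bh1, Slc4a1, Ank1 and Car2. Capitals mark the letters GATAA (the core of sites of GATA factors), CACCC (of sites of the KLF family), CCAAT and TATAA in either orientation, so their reverse complements are in capitals too. The Hba-a1 window lies on the plus strand at chr11:32283422-32283721 and the Epb42 window on the minus strand at chr2:121036828-121037127 (GRCm38.p6).
Hba-a1: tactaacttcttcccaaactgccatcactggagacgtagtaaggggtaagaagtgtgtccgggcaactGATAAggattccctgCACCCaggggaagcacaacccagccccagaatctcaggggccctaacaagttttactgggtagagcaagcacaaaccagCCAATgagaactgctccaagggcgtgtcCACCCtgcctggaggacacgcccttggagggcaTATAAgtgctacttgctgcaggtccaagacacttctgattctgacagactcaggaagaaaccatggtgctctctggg
Epb42: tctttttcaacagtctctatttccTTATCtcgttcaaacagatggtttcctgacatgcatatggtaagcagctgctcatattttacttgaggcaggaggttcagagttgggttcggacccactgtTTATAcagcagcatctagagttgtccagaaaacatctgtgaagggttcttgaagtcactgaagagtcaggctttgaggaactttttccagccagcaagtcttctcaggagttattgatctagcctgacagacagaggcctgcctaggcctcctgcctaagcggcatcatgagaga
The Hba-a1 window held GATAA at position -182 from the start, CACCC at -167 and -60, CCAAT at -88 and TATAA at -27. The Epb42 window held GATAA at -226 and TATAA at -125, both on the opposite strand, and neither CACCC nor CCAAT. Tfrc has 2 windows, which held 3 and 4 matches to CACCC and none to GATAA. These windows overlap, and the CACCC match at 41 in the first is the same bases as that at -186 in the second. Within a window no matches overlapped. GATAA stood in 25.4% of the 32851 RefSeq windows, CACCC in 57.5%, CCAAT in 37.4% and TATAA in 24.9%, so each match is of a common kind.

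A signal here is the MAS5 signal of a probe set, on a linear scale in arbitrary units, as deposited. For tests, log2 was taken of signals raised to a floor of 10.6 where they lay under it, and testing was limited to probe sets with 2 or more of the 4 arrays above a filter level of 41.3. Between 58.1% and 62.8% of probe sets lay above the filter level, and median signals were 76.8 and 84.5 on the PEPCK-TAg arrays, against 68.3 and 66.4 on the WT arrays. The PEPCK-TAg arrays came from 1 chip lot and the WT arrays from 2 others, so lot and genotype cannot be told apart. PEPCK-TAg 1 and WT 1 were scanned on the same day, and differences within that pair are given below. WT 2 was read on another scanner type than the rest, and PEPCK-TAg 2 ran on another fluidics station. Each of these 2 arrays was scanned on a day of its own. Hepatocyte RNA was plain on every array: the signals of albumin (Alb) were 9389.0 and 13118.4 on the PEPCK-TAg arrays, against 15349.7 and 17282.0 on the WT arrays.

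Of the 8 genes, 6 rose in PEPCK-TAg liver by at least 1 probe set, and none fell. Of the 15 probe sets, 12 were not array controls and 9 of these passed the filter. Of these 9, 7 rose at a Benjamini-Hochberg adjusted p of 0.05 in limma's moderated test over all 7877 probe sets tested, where 9.1% rose and 3.4% fell. Of the 7, 1 of Epb42 and 1 of Ank1 passed the filter only through the PEPCK-TAg arrays, so for them a difference was built in. Over all members, probe sets tested or not, the groups did not overlap in 12 of 15 (lower in PEPCK-TAg in 1, the dim Epb42 probe set), where this held for 59.8% of the probe sets tested. In bulk tissue, more cells of a type and more RNA per cell cannot be told apart. No call held without PEPCK-TAg 1 or without PEPCK-TAg 2, when limma passed 0 probe sets of the whole array (1348 and 1433 at an unadjusted p of 0.05), although each of the 7 differences kept its sign.

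**Figure D1:**
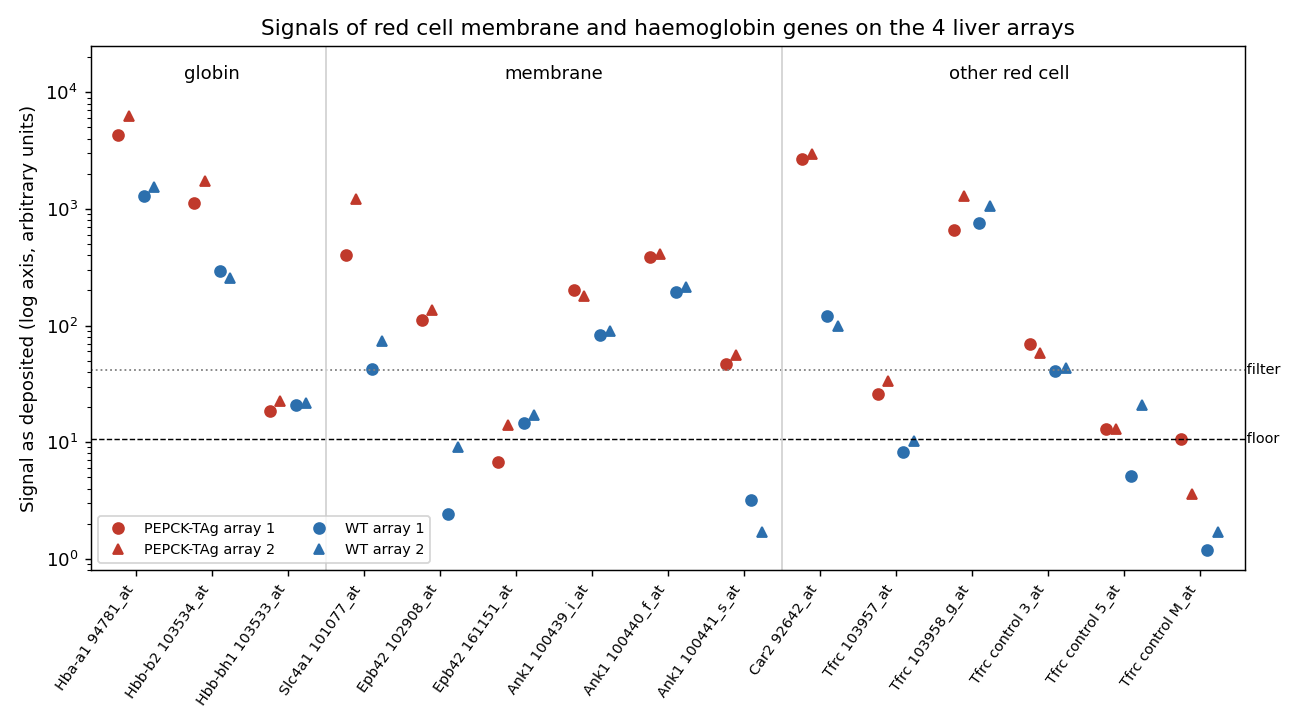
Signals of the 15 member probe sets on the 4 arrays (vertical log axis, arbitrary units, as deposited), with PEPCK-TAg arrays in red and WT arrays in blue. The dashed line is the floor of 10.6 and the dotted line the filter level of 41.3. The PEPCK-TAg arrays lie above the WT arrays for Hba-a1, Hbb-b2, Slc4a1, Car2, the brighter Epb42 probe set and all 3 Ank1 probe sets, and overlap them for Hbb-bh1 and the brighter Tfrc probe set.

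Both adult globin genes rose. Hba-a1 (94781_at), an alpha globin gene, read 4347.1 and 6205.6 on the PEPCK-TAg arrays, against 1301.9 and 1538.3 on the WT arrays. The groups lay far apart, and the gene was 3.67-fold higher in PEPCK-TAg liver (log2 difference 1.87 ± 0.26 SE, adjusted p = 0.0070 by limma, with n = 2 per group here and throughout). Hbb-b2 (103534_at), an adult beta globin gene, read 1114.9 and 1723.9 on the PEPCK-TAg arrays, against 295.9 and 256.7 on the WT arrays. It was 5.02-fold higher (log2 difference 2.33 ± 0.29 SE, adjusted p = 0.0047). Both were bright in WT liver, so neither rise leaned on the floor. Within the pair of arrays of 1 scan day the log2 differences were 1.74 for Hba-a1 and 1.91 for Hbb-b2.

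The embryonic globin gene Hbb-bh1 (103533_at) did not share this. It read 18.6 and 22.5 on the PEPCK-TAg arrays, against 20.7 and 21.8 on the WT arrays. These signals overlapped, lay below the filter level on all 4 arrays and were tested only when the filter was dropped (adjusted p = 0.926). A further pair of embryonic globin genes were on the list of other globin genes, and neither was called. Hba-x, an embryonic alpha-like globin, read 15.7 and 51.3 on the PEPCK-TAg arrays, against 43.5 and 42.9 on the WT arrays (log2 difference -0.61 ± 0.62 SE, adjusted p = 0.548). Hbb-y, an embryonic beta-like globin, read 34.5 and 47.4 on the PEPCK-TAg arrays, against 11.9 and 36.8 on the WT arrays by its brighter probe set. By the other it read 14.3 and 7.2 on the PEPCK-TAg arrays, against 30.1 and 33.9 on the WT arrays, and neither passed the filter. The remaining 6 genes of that list were not named alone by any probe set.

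Of the globin probe sets, 3 are annotated to several adult globin genes at once, so they name no single gene, and they were looked at after their values were seen. One (101869_s_at), shared by 4 beta globin symbols, read 6907.9 and 8844.7 on the PEPCK-TAg arrays, against 2361.0 and 1889.5 on the WT arrays, 3.70-fold higher in PEPCK-TAg liver (adjusted p = 0.0055). Another with the same 4 symbols (160560_at) read 2.1 or less on all 4 arrays. The probe set shared by 2 alpha globin symbols (162457_f_at) read 2018.6 and 2882.6 on the PEPCK-TAg arrays, against 1934.9 and 1241.6 on the WT arrays, with a log2 difference of 0.64 ± 0.31 SE that did not pass (adjusted p = 0.219). The alpha globin probe sets thus differed from each other in their side of the threshold. The pseudogene Hba-ps3 read 146.2 and 166.3 on the PEPCK-TAg arrays, against 158.3 and 159.1 on the WT arrays.

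Of the membrane genes, band 3 and protein 4.2 rose by most. Slc4a1 (101077_at) read 405.1 and 1205.5 on the PEPCK-TAg arrays, against 42.5 and 73.4 on the WT arrays. The groups were well apart, but PEPCK-TAg 2 read 2.98 times as high as PEPCK-TAg 1, the widest spread among the called members. Slc4a1 was 12.5-fold higher in PEPCK-TAg liver (log2 difference 3.64 ± 0.55 SE, adjusted p = 0.0089). The difference was 4.43 without PEPCK-TAg 1, 2.86 without PEPCK-TAg 2 and 3.25 in the pair of 1 scan day.

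Epb42 (102908_at) read 111.9 and 134.9 on the PEPCK-TAg arrays, against 2.4 and 9.0 on the WT arrays. Both WT values lay under the floor, so the gene was at least 11.6-fold higher in PEPCK-TAg liver (log2 difference 3.54 ± 0.40 SE, adjusted p = 0.0035), and the SE holds no spread from the WT arrays. The log2 difference was 4.27 with the floor at the 10th percentile of the signals and 1.57 with it at the 40th. A further Epb42 probe set (161151_at) read 6.8 and 14.1 on the PEPCK-TAg arrays, against 14.5 and 17.0 on the WT arrays. It lay under the filter on all 4 arrays, and without a filter its log2 difference was -0.36 (adjusted p = 0.465).

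The 3 probe sets of ankyrin differed from each other. The brightest (100440_f_at) read 383.5 and 412.3 on the PEPCK-TAg arrays, against 195.8 and 215.2 on the WT arrays. This difference did not pass (log2 difference 0.95 ± 0.24 SE, adjusted p = 0.0514), and it passed in 5 of 20 alternative settings. A second probe set (100439_i_at) read 200.0 and 178.1 on the PEPCK-TAg arrays, against 83.1 and 89.1 on the WT arrays and rose 2.19-fold (log2 difference 1.13 ± 0.28 SE, adjusted p = 0.0451). That call was lost in 12 of 20 settings, among them quantile normalization (0.86, adjusted p = 0.0908), a floor at the 40th percentile, no filter, and each array left out from the same set of probe sets. The third (100441_s_at) read 46.6 and 56.1 on the PEPCK-TAg arrays, against 3.2 and 1.7, under the floor, on the WT arrays. It was at least 4.83-fold higher (log2 difference 2.27 ± 0.47 SE, adjusted p = 0.0265), and its log2 difference was 3.51 (adjusted p = 0.0177) with the floor at the 10th percentile and 0.31 (adjusted p = 0.316) with it at the 40th. The suffixes f and s mark, in Affymetrix's naming, probes shared within a gene family or between similar transcripts.

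Car2 (92642_at) showed the largest difference of the 8 genes among those not bounded by the floor. With no floor, Epb42 gave a log2 difference of 4.72 and Car2 4.69. It read 2672.1 and 2954.1 on the PEPCK-TAg arrays, against 121.1 and 98.4 on the WT arrays, and each pair lay close together. The gene was 25.7-fold higher in PEPCK-TAg liver (log2 difference 4.68 ± 0.24 SE, adjusted p = 0.000458), and 30 of the 7877 probe sets tested had a larger difference. Across all alternatives its log2 difference stayed between 4.46 and 4.83, and it was the one member called with no filter on dim probe sets. Car2 is also made by bile duct cells. Of 8 biliary markers 5 were measured and 2 tested, and neither rose, where 9.56% of all genes tested rose. With 2 genes tested, a count of 0 does not set this list apart from that share. Signals of the 5 summed to 299.1 and 619.3 on the PEPCK-TAg arrays, against 263.3 and 419.1 on the WT arrays. Most of each sum was Aqp1, a water channel that red cells also carry, at 243.3 and 576.8 on the PEPCK-TAg arrays, against 174.8 and 342.4 on the WT arrays, so the sum does not read bile duct cells alone. The bile duct keratin Krt19 read 2.7 and 3.9 on the PEPCK-TAg arrays, against 2.7 and 3.6 on the WT arrays, under the floor on all 4.

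Tfrc did not pass in any test. Its bright probe set (103958_g_at) read 661.5 and 1299.2 on the PEPCK-TAg arrays, against 756.2 and 1069.1 on the WT arrays. The groups overlapped, and the log2 difference was 0.04 ± 0.37 SE (adjusted p = 0.955), with values from -0.45 to 0.53 across the alternatives. A dim probe set (103957_at) read 25.8 and 33.5 on the PEPCK-TAg arrays, against 8.2 and 10.3 on the WT arrays. It was higher without overlap but under the filter level, and without a filter it did not pass (log2 difference 1.47, adjusted p = 0.0837). The array also carries 3 control probe sets along the Tfrc transcript, which stay out of all tests. The one at the 3′ end read 69.3 and 58.6 on the PEPCK-TAg arrays, against 40.7 and 43.2 on the WT arrays. The one in the middle read 10.7 and 3.6 on the PEPCK-TAg arrays, against 1.2 and 1.7 on the WT arrays. The one at the 5′ end read 13.0 and 12.9 on the PEPCK-TAg arrays, against 5.1 and 20.7 on the WT arrays. The Tfrc probe sets therefore disagreed with each other.

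Globin and membrane genes were set side by side through their log2 differences, since signals of different probe sets cannot be compared. By the brightest probe set of each gene, tested or not, the 3 globin genes had a median log2 difference of 1.87 (from -0.06 to 2.33), the 3 membrane genes 3.54 (from 0.95 to 3.64) and the pair of Car2 and Tfrc 2.36 (0.04 and 4.68). The median of all probe sets tested was 0.05. The 3.54 was the value of Epb42 with both WT signals raised to the floor, so it is a lower bound. That probe set passed the filter only through the PEPCK-TAg arrays, so a difference was built in. The membrane median moved with the floor. It was 3.64 with the floor at the 10th percentile and 1.57 with it at the 40th, and the globin median stayed at 1.87. The 1.57 was the value of Epb42 with both WT signals raised to the higher floor, so it is a lower bound. With a pseudocount in place of the floor the membrane median was 3.06 and the globin median 1.87. Slc4a1 is the membrane gene that stood above the floor on all 4 arrays with a large difference. Its log2 difference exceeded that of Hba-a1 by 1.77 and that of Hbb-b2 by 1.31, that of Car2 exceeded them by 2.81 and 2.36, and that of Ank1 fell short of them, at -0.92 and -1.38. In each of these 6 contrasts the PEPCK-TAg arrays did not overlap the WT arrays. An exact permutation test of 2 against 2 arrays gave each a two-sided p of 0.333, the smallest this design allows, so no difference between members was past a threshold.

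The members also varied between the 2 PEPCK-TAg arrays. By the brightest probe set, all 8 genes read higher on PEPCK-TAg 2 than on PEPCK-TAg 1, with a median log2 difference of 0.40, while 54.6% of all probe sets tested did so, with a median of 0.05. The 3′ to 5′ signal ratio of the Gapdh control, a sign of RNA quality, was 4.57 on PEPCK-TAg 1 and 2.90 on PEPCK-TAg 2, and that of actin 3.82 and 3.14. Between the WT arrays 5 of the 8 read higher on WT 2, with a median of 0.10. There the Gapdh ratio was 5.35 on WT 1 and 3.80 on WT 2, and that of actin 4.33 and 3.41. The ratio of PEPCK-TAg 2 to PEPCK-TAg 1 was 1.43 for Hba-a1, 1.55 for Hbb-b2, 1.21 for Epb42, 1.11 for Car2 and 1.08 for the brightest Ank1 probe set. Markers of granulocytes differed the same way, with a median of 0.97, as did those of Kupffer cells and macrophages (0.40) and of hepatocytes (0.38). So did the lists, described below, of haem synthesis (0.33), red cell membrane (0.31), iron handling (0.31) and erythroid genes (0.28). Markers of dividing cells and the carbonic anhydrases differed the other way, with medians of -0.20 and -0.05. The platelet, lymphocyte and biliary medians were 0.0. A higher reading on PEPCK-TAg 2 was thus not particular to the members. The part of these in the members' spread was not tested.

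**Figure D2:**
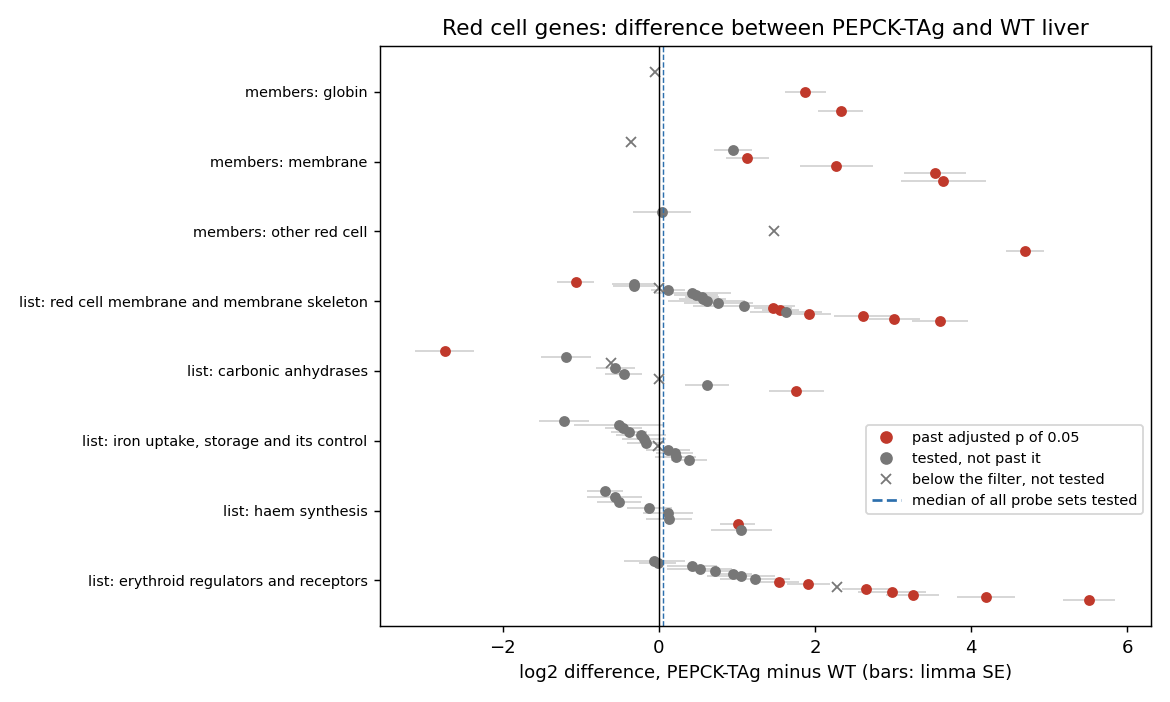
Log2 difference between PEPCK-TAg and WT liver (horizontal axis) for each member probe set and for each measured gene of 5 lists of other red cell, carbonic anhydrase, iron and haem genes. Points past an adjusted p of 0.05 are red, bars are limma's SE, crosses were below the filter and not tested, and the dashed line is the median of all probe sets tested, 0.05. Red points lie to the right for erythroid regulators and for membrane genes other than Stom, at -1.07. Among the carbonic anhydrases Car5a is red at -2.75 and Car1 at 1.76. The genes of iron handling lie between -1.22 and 0.39.

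Other genes of the red cell membrane and its skeleton moved in part with the members. Of 34 listed, 19 were measured and 18 tested by the brightest probe set, and 6 rose and 1 fell, where 9.56% of genes rose and 3.34% fell. With no filter none of the 19 was called. The median log2 difference of the 19 was 0.61. Rhd and Rhag, of the Rh complex of the red cell surface, rose 12.1-fold and 6.15-fold. Rhd read 285.5 and 481.5 on the PEPCK-TAg arrays, against 34.2 and 27.2 on the WT arrays (log2 difference 3.60 ± 0.36 SE, adjusted p = 0.0024). Neither WT signal of Rhd was above the filter level, so it was tested through the PEPCK-TAg arrays and had to differ. Rhag read 197.6 and 360.6 on the PEPCK-TAg arrays, against 48.0 and 39.2 on the WT arrays. The adducin gene Add1, whose protein caps actin in the spectrin skeleton, rose 8.10-fold, and the tropomyosin gene Tpm1 rose 3.79-fold. Both are also made in many other cells. Mpp1 and Sptan1, a spectrin of cells other than red cells, were the other rises, and Stom (stomatin) fell, at a log2 difference of -1.07 (called in 10 of 20 alternatives), all 3 named after their values were seen.

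Other carbonic anhydrases moved in both directions. Of 14 listed, 8 were measured and 6 tested, with 1 rise and 1 fall and a median of -0.51 over the 8. Of all genes tested, 9.56% rose and 3.34% fell, and with 6 tested these counts do not set the list apart. Car1, a form found in red cells, read 221.4 and 381.6 on the PEPCK-TAg arrays, against 98.6 and 74.3 on the WT arrays (log2 difference 1.76 ± 0.36 SE, adjusted p = 0.0252), a call kept in 13 of 20 alternatives. Car5a, the mitochondrial form of liver, fell, with 215.8 and 108.2 on the PEPCK-TAg arrays, against 1167.4 and 897.9 on the WT arrays (-2.75 ± 0.37 SE, adjusted p = 0.0065). Car3, abundant in liver and muscle, read 4204.5 and 2235.7 on the PEPCK-TAg arrays, against 7018.2 and 6950.3 on the WT arrays and did not pass (adjusted p = 0.0616). Car14 gave -0.56 (adjusted p = 0.184).

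Genes of iron handling and of haem synthesis were set beside the 9.56% of all genes that rose and the 3.34% that fell. With 11 and 8 genes tested, counts of 0 and 1 do not set these lists apart from those shares. Of 20 iron genes 12 were measured and 11 tested, and limma called none in either direction (Cp rose under quantile normalization, and Tfr2 fell in 5 of 20 alternatives), with a median of -0.18. The second transferrin receptor, Tfr2 of hepatocytes, read 431.7 and 684.8 on the PEPCK-TAg arrays, against 1043.9 and 1524.1 on the WT arrays (-1.22 ± 0.32 SE, adjusted p = 0.0561). The ferritin heavy chain Fth1, the haem carrier Hpx and the copper oxidase Cp had log2 differences of -0.45, -0.38 (0.16 under quantile normalization) and 0.39. Of 9 haem synthesis genes 8 were measured and tested, and 1 rose, with a median of -0.0023. It was Alad, the second enzyme of the pathway, with 2512.6 and 2847.0 on the PEPCK-TAg arrays, against 1445.1 and 1217.4 on the WT arrays (1.01 ± 0.23 SE, adjusted p = 0.0346), a call kept in 10 of 20 alternatives. Alas1, the first enzyme in liver, gave -0.69 (adjusted p = 0.105), and Fech and Cpox, later enzymes, 1.06 and -0.51, none past the threshold. Alas2, the first enzyme in red cell precursors, was looked at after its values were seen. It read 568.6 and 1124.7 on the PEPCK-TAg arrays, against 1256.5 and 1111.4 on the WT arrays and did not pass (-0.57 ± 0.35 SE, adjusted p = 0.323).

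Among 20 genes listed as erythroid regulators and receptors, 16 were measured and 15 tested. Of these 15, 7 rose and none fell, beside 9.56% of all genes that rose. Cat, Prdx2 and Bpgm, enzymes that are on the list without being regulators, were tested and not called. The median log2 difference was 1.39 over the 16. Of the 7, Hemgn, Myb and Gfi1b had no WT array above the filter level, so for them a difference was built in, and 4 of the other 12 rose. With no filter 3 of 16 rose. Hemgn, a nuclear protein of red cell precursors, read 612.7 and 564.2 on the PEPCK-TAg arrays, against 8.6 and 15.7 on the WT arrays. Myb, a factor of early blood precursors, read 179.5 and 209.3 on the PEPCK-TAg arrays, against 1.1 and 0.5 on the WT arrays, at least 18.3-fold higher (adjusted p = 0.0016). Lyl1, also a factor of early blood precursors, rose 9.53-fold. Nfe2, which acts on globin genes, read 273.5 and 366.0 on the PEPCK-TAg arrays, against 52.8 and 48.2 on the WT arrays, 6.26-fold higher. The factors that bind the GATA and CACCC motifs marked above were named after their values were seen. Klf1 rose, with 442.5 and 458.3 on the PEPCK-TAg arrays, against 161.5 and 147.3 on the WT arrays (1.54 ± 0.25 SE, adjusted p = 0.0109). Gata1 read 73.0 and 85.6 on the PEPCK-TAg arrays, against 27.1 and 53.5 on the WT arrays and did not pass (1.05 ± 0.44 SE, adjusted p = 0.165).

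**Figure D3:**
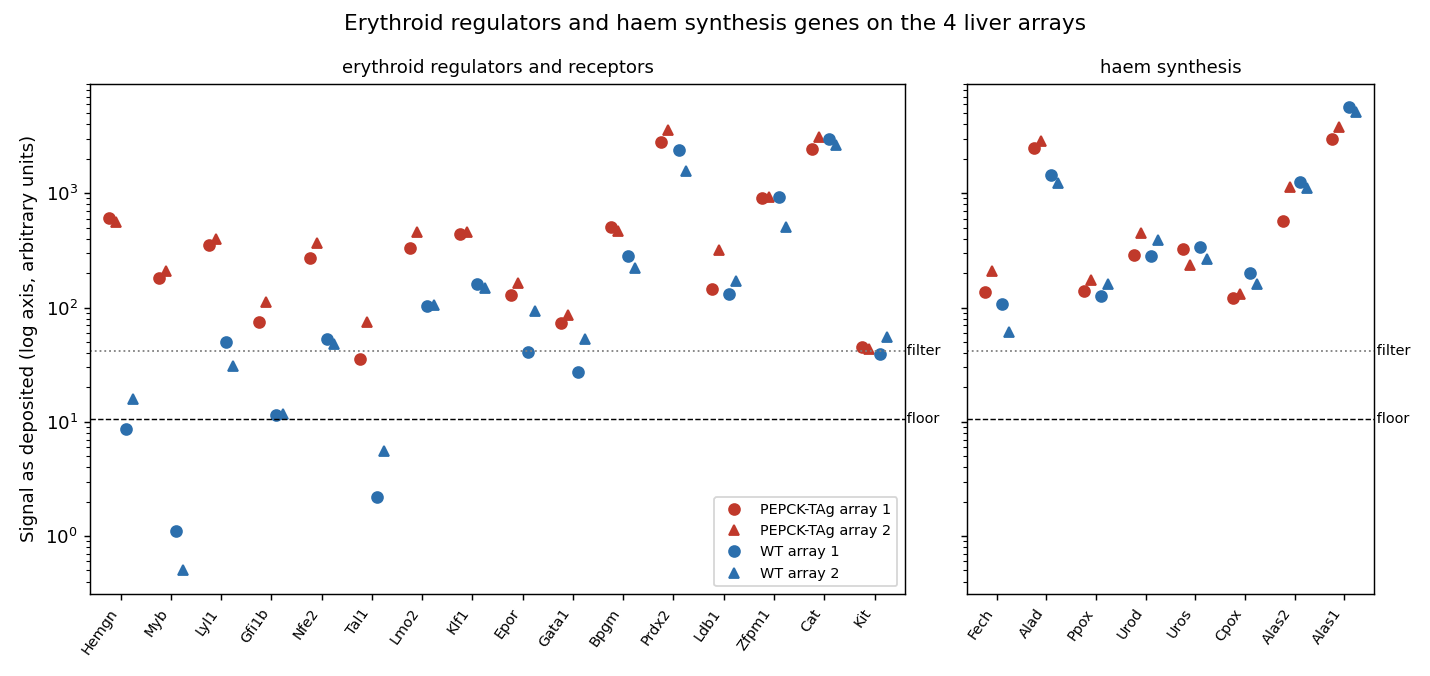
Signals of the 16 measured erythroid regulators and receptors (left) and the 8 haem synthesis genes (right) on the 4 arrays, on a log axis in arbitrary units as deposited, with PEPCK-TAg arrays in red and WT arrays in blue. The red points stand above the blue ones without overlap from Hemgn to Prdx2, and none of the genes after Klf1 was called. Among the haem genes Alad and Fech stand above without overlap, Alad alone was called, and Alas2 overlaps.

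Markers of other cells moved beside these genes. Over all genes tested, 9.56% rose and 3.34% fell. A count of 1 rise, as for Kupffer cells and lymphocytes below, does not set a list apart from these shares. In markers of granulocytes and of dividing cells many genes were tested only through the PEPCK-TAg arrays. Of 12 granulocyte and myeloid markers all were measured, 8 of 9 tested rose (5 of the 8 had no WT array above the filter level, and 2 of 12 rose with no filter), and their signals summed to 7444.8 and 11516.5 on the PEPCK-TAg arrays, against 368.6 and 416.3 on the WT arrays. Of 10 measured markers of dividing cells, all tested, 9 rose (6 of the 9 had no WT array above the filter level, and 5 of 10 rose with no filter), with signals that summed to 7710.4 and 6769.6 on the PEPCK-TAg arrays, against 767.5 and 574.6 on the WT arrays. Of 5 measured megakaryocyte and platelet markers 2 of 3 tested rose, both with no WT array above the filter level, and the platelet chemokine Pf4 lay under the filter level on all 4 arrays. Of 10 measured markers of Kupffer cells and macrophages, which clear old red cells, 1 of 9 tested rose, with summed signals of 4167.8 and 5908.3 on the PEPCK-TAg arrays, against 2759.5 and 2781.4 on the WT arrays. Of 8 measured hepatocyte markers, all tested, 2 fell and none rose, and their signals summed to 41082.3 and 51842.4 on the PEPCK-TAg arrays, against 74254.6 and 77860.4 on the WT arrays. Under quantile normalization the hepatocyte median was -0.19 in place of -0.73, and Alb and Cps1 turned from -0.56 and -0.58 to 0.04 and 0.01. Of 8 measured lymphocyte markers 1 of 4 tested rose, with no WT array above the filter level. The part of these shifts in the members' differences was not tested.

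The genes whose pattern over the 4 arrays lay closest to the mean of the 8 members were Alyref, Fancg, Myl9, Mras and Tpm1, by Euclidean distance between log2 signals centred on each gene's mean. Their distances ran from 0.145 to 0.205. Alyref, an mRNA export factor, read 540.5 and 796.6 on the PEPCK-TAg arrays, against 137.3 and 174.9 on the WT arrays. Fancg, Myl9 and Mras had no WT array above the filter level, so they were tested through the PEPCK-TAg arrays and had to differ. The mean of the members joins log2 differences from -0.06 (Hbb-bh1) to 4.68 (Car2), so it stands for no single class of members. With 4 arrays such likeness describes these arrays only.

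**Figure D4:**
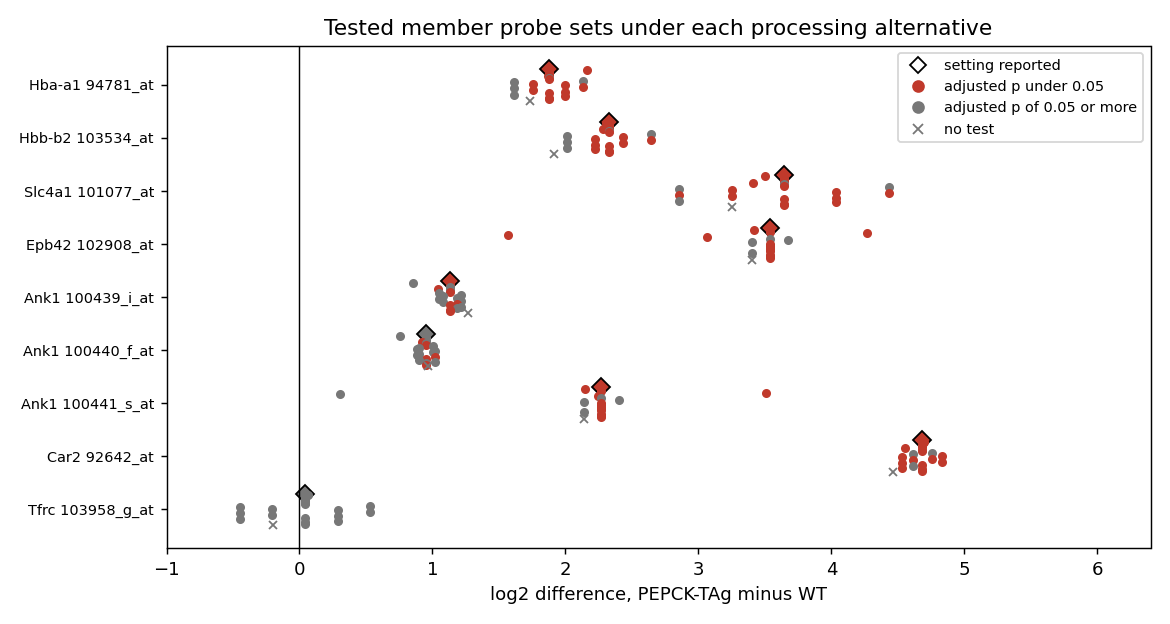
Log2 difference between PEPCK-TAg and WT liver (horizontal axis) of the 9 tested member probe sets in the reported setting (diamonds) and in each alternative (small points). Red marks an adjusted p under 0.05, grey one of 0.05 or more, and crosses a value without a test. Car2 keeps to a narrow range, Epb42 and 100441_s_at of Ank1 shift most with the floor, and the bright Tfrc probe set lies on both sides of 0.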

How the data were processed

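The values are MAS5 intensities, 1 per probe set on each array and linear in scale, as deposited by the authors (per the submitters' processing notes, which name no version in the sources used here). The 2% trimmed means of the deposited signals ran from 250.1 to 250.2, so the authors had brought the arrays to 1 level. The array run records, also deposited, hold text on lot, station and scanner, with no expression values.

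Here the 66 control probe sets were set aside and each array was rescaled to the mean of the trimmed means, a change of at most 0.102%. The floor was the 20th percentile over all signals, 10.6, and the filter required 2 arrays of any group above the 40th percentile, 41.3, which kept 7877 of 12422 probe sets. After log2, PEPCK-TAg was set against WT in limma 3.58.1 under R 4.3.3 (lmFit, then eBayes with an intensity trend, two-sided, no block), with Benjamini-Hochberg adjustment over everything tested. The code was tested on simulated data. A fold set against floored signals is given as a lower bound.

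Symbols are those of the platform annotation, which gives 1 symbol to 10833 probe sets, several to 396 and none to 1193. RefSeq (GRCm38.p6) held 10817 of the 10833 and also gave the promoter windows. The members, lists and alternatives were chosen with earlier results of these data known. All members are named, with up to 4 genes of smallest p from each list, in which the brightest probe set stands for a gene. Alternatives changed the scaling, floor, filter, arrays, block or variance model. With so few arrays, precision is limited throughout.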

Additional observations from a re-analysis of the deposited data

Results flagged for a closer look

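Some Tfrc signals outside the test were higher in PEPCK-TAg liver. The dim probe set 103957_at, below the filter level, had a mean signal of 29.6 on the PEPCK-TAg arrays and 9.25 on the WT arrays. The control probe set at the 3′ end of the Tfrc transcript, which is no part of the comparison, had a mean of 64.0 on the PEPCK-TAg arrays and 42.0 on the WT arrays. With no filter 103957_at did not pass (log2 difference 1.47, limma adjusted p = 0.0837), the control was not tested, and the brighter Tfrc probe set had a log2 difference of 0.04. The control at the 5′ end, also untested, had means of 12.95 on the PEPCK-TAg arrays and 12.9 on the WT arrays, and the groups overlapped. The middle control had means of 7.15 and 1.45, both under the floor.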

How the results depend on the processing

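Across the alternatives the called probe sets of Hba-a1, Hbb-b2, Slc4a1, Epb42, Ank1 and Car2 stayed higher in PEPCK-TAg liver in every setting that gave them a value, while their calls did not all hold. With no filter 165 of all probe sets and 1 of the members (Car2) passed, against 985 and 7. Leaving out an array from the same tested probe sets gave 0 to 1449 calls overall and 0 to 6 among the members. Both zeros came without PEPCK-TAg 1 and without PEPCK-TAg 2, where the spread rests on the WT arrays alone and is 0 for genes at the floor on both. With the filter applied anew, chosen after seeing the data, 167 and 4 passed without PEPCK-TAg 1, 145 and 2 without PEPCK-TAg 2, and 1696 and 1207 overall without WT 1 and WT 2 (6 and 8 among the members). With the fluidics station as a block, which removes PEPCK-TAg 2 from the comparison, limma passed 0 probe sets and 0 members (1432 and 7 at an unadjusted p of 0.05). The replicate number as a block (replicate block) gave 1873 calls and 8 among the members, adding the Ank1 probe set 100440_f_at. The labels do not say that same-numbered arrays are paired, and their deviations correlated at r = 0.253 across probe sets.

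The globin median was 2.16 under quantile normalization, which moved the median of all probe sets tested by -0.13. The membrane median was 1.57 with a floor at the 40th percentile, 3.06 with a pseudocount, 2.86 with the station as a block and 2.86 to 3.67 with an array left out. The arrays of 1 scan day gave 1.74, 3.25 and 2.13 for globin, membrane and other red cell genes.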
